A study of Saccharomyces cerevisiae with 60 samples.

Results

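The regions described here are 827 of 20861 bins of 500 bp of the budding yeast genome, 3.96% of them. In ChIP-seq with anti-FLAG they had a high signal in a strain that carries no FLAG epitope, and no longer a high signal in a strain that makes FLAG-tagged LexA. The signal is the read count of consecutive 50 bp windows, smoothed by a moving median over 10 windows and divided by the 20th percentile of the library, so that 1 is the level of quiet sequence. It was averaged over the 10 windows of each bin and over 3 libraries. A bin was high, or an outlier, where this mean exceeded the third quartile of all bins plus 1.5 interquartile ranges. That limit was 1.84 in the untagged strain and 1.68 in the LexA-FLAG strain, which the study calls FLOP. The member bins were thus chosen by their measured values in these 2 groups. Of 1247 outlier bins of the untagged strain, 827 (66.3%) were not outliers in FLOP and 420 were. Chromosome IV from 460201, chromosome XV from 565451 and chromosome XII from 451001 to 490000 were left out, since they hold the integration sites of the constructs and the ribosomal DNA.

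The series holds 60 libraries, 3 for each of 20 groups, and 36 libraries of 12 groups are used here. All strains have the W303 background, were grown in rich medium and were crosslinked with formaldehyde. The anti-FLAG groups of unsynchronized cells were the untagged wild-type strain (SSY161), FLOP (MPy35), Fkh1-FLAG (OAy1100), fkh1-dbm-FLAG (MPy172) and Fkh1-FLAG in the FLOP strain (MPy54 in the sample labels, MPy55 in the text of the study). FLOP is LexA with 3 FLAG copies made from the TEF1 promoter, integrated at ADE2 with 2 arrays of LexA binding sites. Fkh1 is a forkhead transcription factor tagged at its own locus, and dbm is a mutant form with impaired DNA binding. FLOP, Fkh1-FLAG (FLOP) and Sir2-FLAG (FLOP, YHy29) were also held in G1 with α-factor, the mating pheromone, where Sir2 is the histone deacetylase of silent chromatin. For other antibodies there were the untagged strain with anti-HA or anti-MYC, a LexA-HA strain (HOP, MPy39) and a LexA-MYC strain (MOP, MPy105), both made from the ADH1 promoter. Each group rests on a single strain construct. The labels do not say that the 3 libraries of a group came from separate cultures, so p-values measure the spread between these libraries, which may be technical.

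ChIP recovers DNA crosslinked to the protein that an antibody binds, but some DNA is recovered without that protein. Genes that are transcribed at high rates are known for such non-specific recovery in yeast. LexA is a bacterial repressor with no known target in yeast beyond the inserted arrays, so LexA-FLAG gives the antibody a target that should not mark native genes. The question at these bins is therefore how background of an antibody with no target changes once a target is present.

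Summed window counts ranged from 12500040 to 44263661 in the anti-FLAG libraries and from 2116658 to 44263661 in all 60. The anti-MYC and MOP libraries were the shallowest, with a 20th percentile of 6 to 15.5 counts a window. Log2 counts of bins correlated between libraries of a group with r of 0.912 to 0.975 for anti-FLAG, 0.940 to 0.955 for anti-HA and HOP, and 0.621 to 0.797 for anti-MYC and MOP. Labels were checked at the 950 bp left of the ADE2 construct on chromosome XV, from 565451 to 566400. There the signal was 1.21 ± 0.0414 (SD, n = 3) in the untagged strain, 1.29 ± 0.0977 in Fkh1-FLAG and 1.19 ± 0.0243 in fkh1-dbm-FLAG, which lack the construct. It was 10.1 ± 0.517 in FLOP and 6.44 ± 2.20 in Fkh1-FLAG (FLOP), and 11.0 ± 4.89, 8.26 ± 3.27 and 10.1 ± 3.61 in FLOP, Fkh1-FLAG (FLOP) and Sir2-FLAG (FLOP) in G1. The groups with and without the construct did not overlap.

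The highest member was a 500 bp bin over the first part of FBA1, the gene of the glycolytic enzyme aldolase, on chromosome XI from 327001 to 327500. Its signal in the untagged libraries was 6.87, 6.42 and 6.81, and in the FLOP libraries 1.53, 1.63 and 1.67. TDH3 encodes the main glyceraldehyde-3-phosphate dehydrogenase. Its bin on chromosome VII from 883501 to 884000 had 5.91, 5.52 and 6.25 in the untagged libraries and 1.54, 1.63 and 1.75 in FLOP. At PHO84, the gene of a high-affinity phosphate transporter, the bin on chromosome XIII from 25501 to 26000 had 5.57, 5.06 and 5.56 against 1.23, 1.22 and 1.32. All 3 loci were higher in every untagged library than in every FLOP library, and the ratios of the means were 4.16, 3.59 and 4.30.

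Adjacent member bins formed 415 regions, of which 208 held 1 bin, 112 held 2 and 95 held 3 or more. The 12 regions with the highest untagged signal included these 3 loci. ILV5, an enzyme of branched-chain amino acid synthesis, had 4.89 in the untagged strain and 1.56 in FLOP at chromosome XII, 839001 to 839500. A cluster of snoRNA genes from SNR78 to SNR73, whose RNAs guide methylation of ribosomal RNA, had 4.83 and 1.49 over 3 bins of chromosome XIII from 297001 to 298500. CDC19, the gene of pyruvate kinase, had 4.65 and 1.41 at chromosome I, 73001 to 73500. PMA1, which encodes the plasma membrane proton pump, held 2 of these regions. One spanned its start at chromosome VII, 482501 to 483000, with 4.58 and 1.36, and the other its end from 479001 to 480000, with 4.14 and 1.28. HYP2, the gene of translation factor eIF5A, had 4.49 and 1.34 at chromosome V, 85501 to 86500. YHB1, a nitric oxide oxidoreductase gene, had 4.29 and 1.67 at chromosome VII, 960001 to 960500. RPL8A, a ribosomal protein gene, had 4.21 and 1.34 at chromosome VIII, 34501 to 36000. TEF2, a gene of translation elongation factor EF-1α, had 4.2 and 1.46 at chromosome II, 477501 to 478000. These are means of 3 libraries, and in none of the 12 regions did an untagged library fall to the level of a FLOP library.

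**Figure D1:**
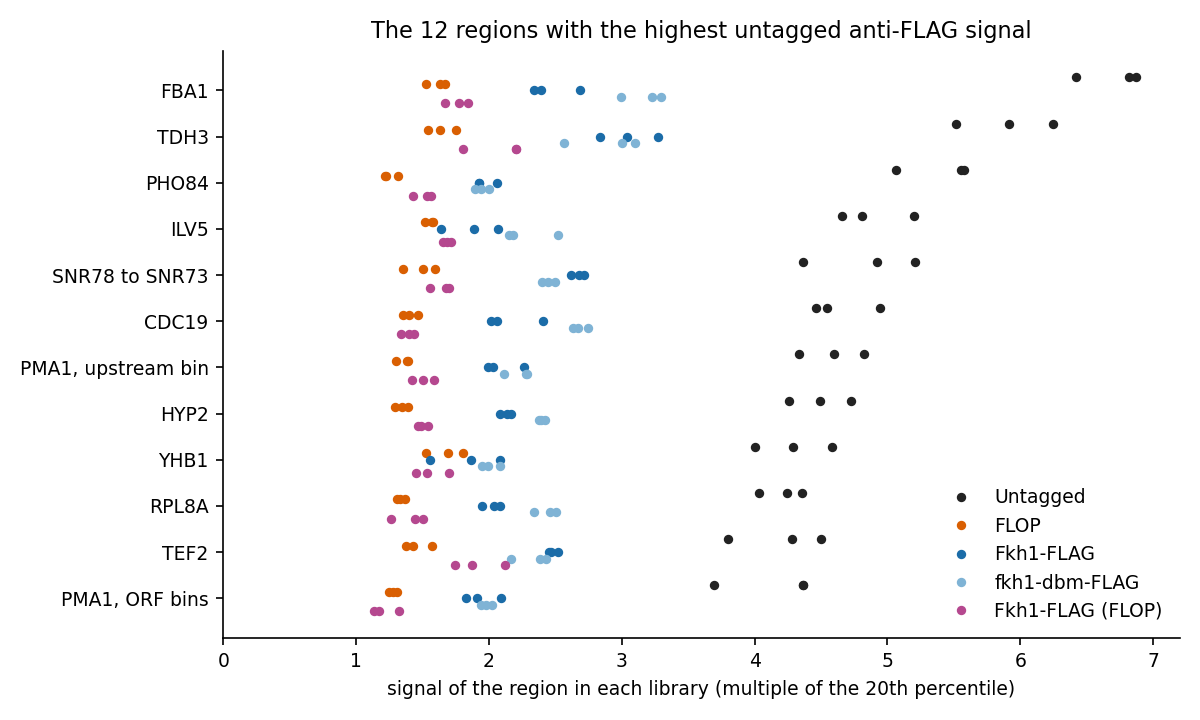
Signal (multiple of the 20th percentile of the library, horizontal axis) of the 12 member regions with the highest untagged signal, 1 point per library and 3 libraries per group, coloured by group. The untagged points lie far right of the FLOP points in every row, from 6.70 on average at FBA1 to 4.14 at the end of PMA1, and the means of Fkh1-FLAG and fkh1-dbm-FLAG lie between, although at YHB1 the Fkh1-FLAG points overlap those of FLOP.

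Most members were far less extreme. Their untagged signal ran from 1.84 to 6.70 with a median of 2.14, with 245 bins at or below 2, 89 at 3 or more and 29 at 4 or more. The ratio of the untagged to the FLOP mean had a median of 1.55 and ran from 1.12 to 4.34. In 812 of the 827 bins all 3 untagged libraries exceeded all 3 FLOP libraries, and the median coefficient of variation between libraries was 6.11% in the untagged strain and 6.37% in FLOP. Fitted across all bins, 132 members were lower in FLOP at an adjusted p under 0.05 with a change of 1 or more on the log2 scale, where 1.13% of all bins were. This contrast chose the members, so the order of the libraries and the fitted calls follow largely from the rule. These values are a description only.

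The limits of the rule fell among closely spaced values. The members just above the untagged limit were at YMR045C, NOP56 and NOP2, with 1.839, 1.841 and 1.841. The bins just below it, at SLN1 beside RPL40A, at YAR010C and at ERG1, had 1.838, 1.838 and 1.837. On the FLOP side, bins at REA1 and MAP1 were members with 1.676 each in FLOP. Bins at YGR038C-B, PWP1 and YPL257W-B, with 1.679, 1.684 and 1.685 in FLOP, were not.

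Most members lay inside genes. Of the 827 bins, 692 (83.7%) had their midpoint in an open reading frame (ORF), against 72.8% of all bins. With each ORF cut into 3 equal parts, 3.69% of the bins in the part nearest the start codon were members, 5.16% of those in the middle part and 4.8% of those in the part nearest the stop codon. Between ORFs the share was 5.30% where 2 genes end toward each other (46 of 868 bins), 1.92% between genes that point the same way (54 of 2809) and 0.989% where 2 genes start away from each other (18 of 1820). Bins centred in a non-coding RNA gene were members in 16 of 94 cases (17%). Sequence within 5 kb of a chromosome end held 5 members in 300 bins (1.67%), and the next 15 kb held 10 in 900 (1.11%). By chromosome the share was highest on XII (6.40%) and lowest on XV (1.68%).

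Along ORFs of at least 1000 bp, the untagged signal rose from the start codon and was highest well inside the gene. Over the 215 such ORFs that hold a member, the median untagged signal was 0.98 at 250 bp before the start codon, 1.98 at 550 bp after it, 2.10 at 600 bp before the stop codon, 1.72 at the stop codon and 1.34 at 300 bp past it. Over the other 2882 ORFs the same positions gave 0.99, 1.24, 1.27, 1.13 and 1.1. FLOP kept the same shape at a lower height over the genes with a member, with 1.44 at 550 bp after the start and 1.49 at 600 bp before the stop. Fkh1-FLAG was intermediate, with 1.64 and 1.70, and Fkh1-FLAG (FLOP) was at the FLOP height, with 1.46 and 1.49. The shape of the untagged profile follows in part from the rule, which chose genes by that signal.

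**Figure D2:**
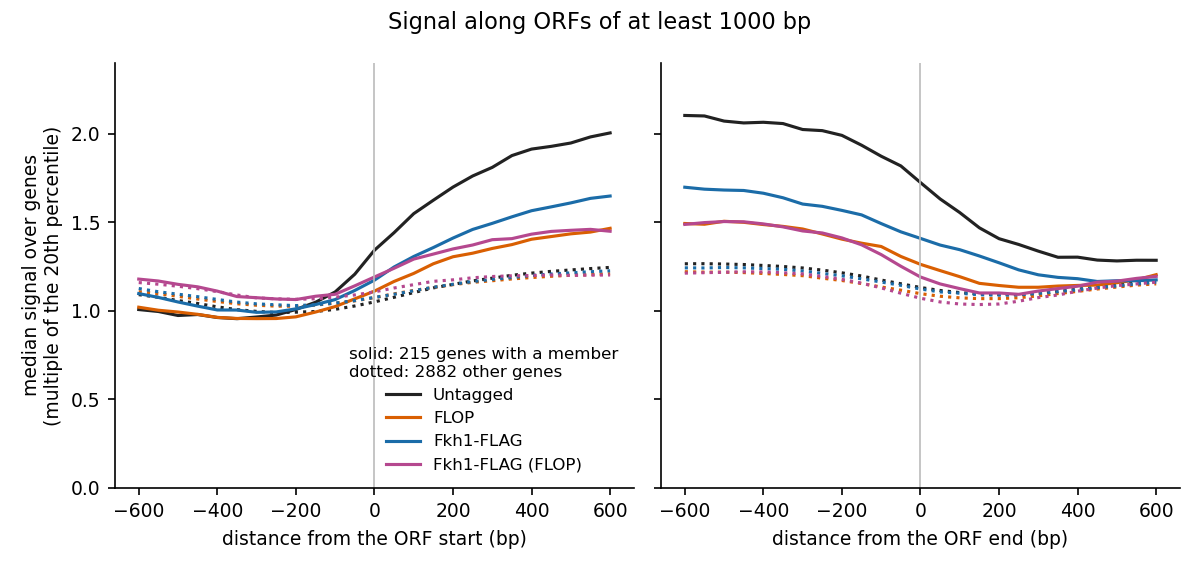
Median signal over genes (multiple of the 20th percentile, vertical axis) against distance in bp from the ORF start (left) and the ORF end (right), in 4 anti-FLAG groups of unsynchronized cells. Solid lines are the 215 ORFs of at least 1000 bp with a member and dotted lines the 2882 others. Over member genes the untagged line is highest inside the ORF (2.10 at 600 bp before the end) and the FLOP and Fkh1-FLAG (FLOP) lines coincide at 1.49, while upstream of the start the untagged and FLOP lines meet near 1.

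At the strongest genes the member bins were the flanks of taller peaks. In 50 bp windows the untagged signal reached 12.5 ± 0.758 (SD, n = 3) at PHO84, 624 bp after its start codon, where FLOP had 2.10 ± 0.101. It reached 11.3 ± 0.512 at TDH3, 434 bp after the start, against 2.24 ± 0.0917 in FLOP, and 9.30 ± 0.515 at FBA1, 511 bp after the start, against 1.99 ± 0.175. The bins that these peaks filled stayed above the FLOP limit and so are not members. PHO84 held 3 bins that were outliers in both strains beside 1 member, TDH3 held 2 beside 1 and FBA1 held 1 between 2 members. At PMA1, 5 bins with an untagged signal of up to 11.4 and a FLOP signal of 1.97 to 2.28 lay between the 2 members. At FBA1 the untagged signal was 1.00 and the FLOP signal 0.625 in the window 239 bp before the start codon.

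Some long genes held runs of moderate members. REA1, whose product is a giant ATPase of 60S ribosome assembly, held 22 members among its 29 bins, 17 of them in the longest run of 8.5 kb. ACC1, the gene of acetyl-CoA carboxylase, held members in 14 of 14 bins, and URA2, the gene of the first steps of pyrimidine synthesis, in 11 of 14. RPO21, the gene of the largest RNA polymerase II subunit, held 10 of 10, and RPA135, the gene of the second largest RNA polymerase I subunit, 7 of 7. RRP5 and UTP10, which encode factors of small-subunit ribosome assembly, held 9 of 10 and 9 of 11. Other long genes held few, such as UTP20 with 1 of 15, FAS1 with 3 of 13 and FAS2 with 3 of 12. In all, 330 ORFs held a member midpoint and 19 of them held 5 or more. Their median length was 1404 bp, against 1251 bp for the 4897 ORFs that hold the midpoint of any bin. A longer ORF has more bins that can be members, so these lengths cannot show a preference for long genes. YGR027W-B and YPL257W-B, which are given by their identifiers only, held 6 of 11 bins each. Repeat elements were not marked. How far reads at ORFs given by identifier only, such as these, YJR027W and YPR204W, were shared with similar copies was not tested.

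Grouped by gene lists, ribosomal protein genes held the largest share of members. Of 122 genes of cytoplasmic ribosomal proteins, 106 (86.9%) overlapped a member, and 164 of their 306 bins (53.6%) were members, against 810 of 19086 bins (4.24%) that overlap any gene. RPL8A had a mean untagged signal of 5.05 over its 2 member bins and 1.32 in FLOP, RPL10 had 4.12 and 1.58, and RPL3 had 4.04 and 1.55. Bins above the limit in both strains numbered another 26. Many ribosomal protein genes and some other genes named here, such as TEF2, TDH3 and SSA2, have paralogs of similar sequence, and how far reads were shared between copies was not tested. Neighbouring windows share reads.

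Next came the snoRNA genes, with 30 members in 78 bins (38.5%) at 33 of 67 genes, and the genes of glycolysis and fermentation, with 26 in 74 (35.1%) at 13 of 19. Among the latter, GPM1 (phosphoglycerate mutase) had 4.0 in the untagged strain and 1.55 in FLOP over its member bins, PGK1 (phosphoglycerate kinase) had 3.93 and 1.43, and TDH2 had 3.63 and 1.37. Another 20 bins of these genes were outliers in both strains. SNR128 and SNR190, which share a bin, had 4.25 and 1.34. Of the core histone genes, 4 of 6 held 1 member each, and HHT2, an H3 gene, had 2.70 and 1.17.

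Ribosome biogenesis genes held 74 members in 251 bins (29.5%), with DBP2, an RNA helicase gene, at 3.35 and 1.35. Translation factors held 24 in 92 (26.1%), cell wall protein genes 28 in 147 (19%) and chaperone genes 16 in 92 (17.4%). Of the cell wall genes, CCW12 had 4.63 and 1.30, HSP150 had 4.25 and 1.41 and UTR2 had 3.75 and 1.38. The Hsp70 gene SSB1 had 3.68 and 1.56. Amino acid biosynthesis genes held 17 in 196 (8.67%), and other non-coding RNA genes 10 in 107 (9.35%). LSR1, the U2 snRNA of the spliceosome, had 3.94 and 1.5, SNR19, the U1 snRNA, had 2.75 and 1.45, and NME1, the RNA of RNase MRP, had 2.52 and 1.25.

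Other lists were close to the level of all genes or below it. SBF and MBF targets, the genes of the G1/S program, held 9 members in 162 bins (5.56%), hexose transporters 4 in 72 (5.56%) and nuclear pore and transport genes 10 in 200 (5%). The CLB2 cluster, mitotic genes that Fkh1 and its paralog are known to regulate, held 1 in 125 (0.800%). The tRNA genes, which RNA polymerase III transcribes at high rates, held 2 in 286 (0.699%). Together 408 members (49.3%) overlapped a gene of some list, where 10.4% of all bins did, and 419 overlapped none. These shares are descriptions, since the untagged and FLOP values chose the bins.

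**Figure D3:**
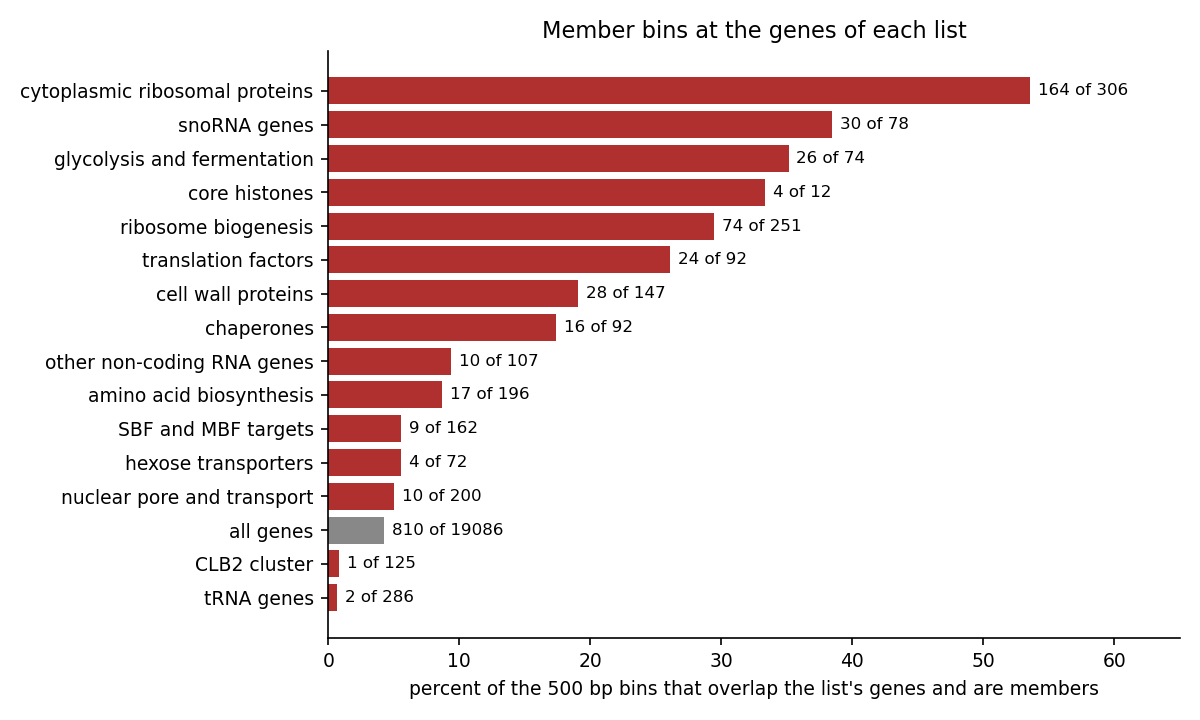
Percentage of the 500 bp bins overlapping the genes of each list that are members (horizontal axis, linear from 0), with the number of member bins and of all bins printed at each bar and all genes in grey. Ribosomal protein genes are at 53.6%, snoRNA genes at 38.5% and glycolytic genes at 35.1%, all genes are at 4.24%, and tRNA genes are at 0.699%.

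Across the anti-FLAG groups, the members were highest in the untagged strain, intermediate where the only FLAG target was Fkh1, and low where LexA-FLAG was present, except with Sir2-FLAG. The median signal over the 827 bins was 2.14, 2.10 and 2.24 in the untagged libraries and 1.43, 1.45 and 1.42 in FLOP, the values the rule used. In groups it did not use, the medians were 1.68, 1.65 and 1.64 in Fkh1-FLAG, 1.82, 1.84 and 1.8 in fkh1-dbm-FLAG and 1.41, 1.44 and 1.40 in Fkh1-FLAG (FLOP). The latter 3 groups did not overlap one another. In G1 the medians were 1.40, 1.43 and 1.53 in FLOP and 1.38, 1.5 and 1.42 in Fkh1-FLAG (FLOP), which overlapped. Sir2-FLAG (FLOP) in G1 had 1.79, 2.08 and 1.65, with medians over all bins of 1.31 to 1.51, above the 1.16 to 1.19 of the untagged libraries.

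Outliers were then called in each of the other groups by the same rule. Of the members, 245 (29.6%) were outliers in Fkh1-FLAG, where 6.21% of all bins were, and 396 (47.9%) in fkh1-dbm-FLAG, where 4.57% were. Only 57 were outliers in Fkh1-FLAG (FLOP), 6.89% of members against 5.41% of all bins, which is near the background. In G1, 76 (9.19%) were outliers in FLOP (all bins 5.92%). There 58 (7.01%) were outliers in Fkh1-FLAG (FLOP) (all bins 6.39%) and 34 (4.11%) in Sir2-FLAG (FLOP) (all bins 3.55%), both near the background. With anti-HA, 31 (3.75%) were outliers in the untagged strain (all bins 1.9%) and 97 (11.7%) in HOP (all bins 2.38%). With anti-MYC, 4 (0.484%) were outliers in the untagged strain (all bins 0.681%) and 63 (7.62%) in MOP (all bins 1.46%).

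**Figure D4:**
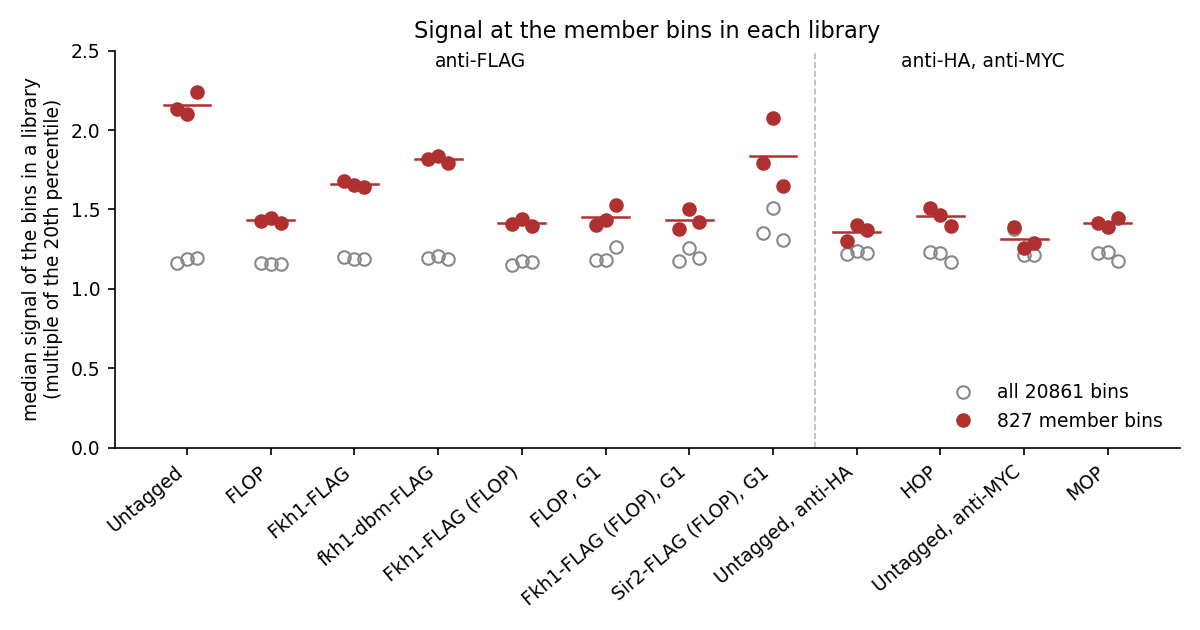
Median signal (multiple of the 20th percentile, vertical axis from 0) of the 827 member bins (filled) and of all 20861 bins (open) in each library, by group, with the mean of the 3 filled points as a line. Members are at 2.10 to 2.24 in untagged anti-FLAG libraries, at 1.64 to 1.84 in the Fkh1-FLAG and fkh1-dbm-FLAG libraries and at 1.40 to 1.45 in the unsynchronized libraries with LexA-FLAG, while all bins stay at about 1.2 in these groups.

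Whether LexA-FLAG lowers these bins in a strain that already has a FLAG target was asked by comparing Fkh1-FLAG (FLOP) with Fkh1-FLAG, groups the rule did not use. The members were lower with LexA-FLAG, by a small amount at most bins. Their median signal was 1.66 in Fkh1-FLAG and 1.41 in Fkh1-FLAG (FLOP). A fall was not particular to them. Bins that were outliers in both the untagged strain and FLOP had medians of 2.39 and 1.98 in these groups. At SSA2, an Hsp70 gene, the signal at chromosome XII, 96001 to 96500, was 2.74, 3.16 and 2.60 in Fkh1-FLAG and 1.36, 1.40 and 1.44 in Fkh1-FLAG (FLOP), with no overlap. The log2 fold change was -1.03 ± 0.105 (SE), with an adjusted p of 1.64e-11 (edgeR quasi-likelihood fit, Benjamini-Hochberg), and the next bin of SSA2 from 96501 gave the same fold change. At the FBA1 bin the signal was 2.68, 2.39 and 2.34 against 1.84, 1.77 and 1.67, a log2 fold change of -0.47 ± 0.102 (edgeR adjusted p = 0.000594).

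Over all members, tested in the fit across 20795 bins, 387 (46.8%) were lower at an edgeR adjusted p under 0.05, where 10.7% of all bins were, and 4 were higher, where 6.64% of all bins were. Counting by adjusted p alone was chosen after seeing the data. With the added limit of 1 on the log2 scale, 3 members were lower (all bins 0.0337%) and 0 higher (all bins 0.37%). TMM normalization and DESeq2 each gave 1 lower in place of 3. DESeq2 also gave 0 higher, and 536 members had an unadjusted edgeR p under 0.05 in either direction (all bins 30.7%). The median log2 fold change was -0.25 over the members, with quartiles of -0.38 and -0.12, and -0.05 over all bins tested, and 750 of the 827 members were below 0. All 3 libraries of one group lay below all 3 of the other at 537 members, where 22% of all bins had this order. The third call was at YJR027W, chromosome X, 476501 to 477000, with 1.73, 1.67 and 1.79 in Fkh1-FLAG against 0.866, 0.841 and 0.733. With TMM normalization the members' count was 8 higher and 320 lower, while that over all bins moved from 1381 higher and 2233 lower to 1899 and 1502. Without replicate 2 of Fkh1-FLAG, 1 member was lower by both criteria.

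The members were also divided by their untagged signal, and the difference between these classes was not tested. Of 245 members with an untagged signal of up to 2, 81 (33.1%) were lower in Fkh1-FLAG (FLOP) and their median log2 fold change was -0.21. Of the 371 members over 2 and up to 2.5 it was 171 (46.1%) and -0.24, of the 122 over 2.5 and under 3 it was 66 (54.1%) and -0.29, and of the 89 at 3 or more it was 69 (77.5%) and -0.41. The untagged libraries that define these classes are in neither group of the test, but the rule used their values. From the lowest to the highest class the Fkh1-FLAG median also rose, from 1.55 to 1.98. How far the share that passed followed the counts of a bin was not tested, and no share at matched signal was computed.

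Named genes with high background fell in turn. RPL8A fell by 0.84 on the log2 scale at chromosome VIII, 35001 to 35500 (edgeR adjusted p = 2.45e-09), and PMA1 by 0.93 in its end-side bin from 479501 (edgeR adjusted p = 2.74e-10). CDC19 fell by 0.75, HYP2 by 0.76 in its bin from 86001, and PGK1 by 0.79 in its bin from 138001, all with an edgeR adjusted p of 1.18e-07 or less. In the snoRNA cluster the bin of SNR77 and SNR76 fell by 0.81. ILV5 and YHB1 did not pass, with -0.11 ± 0.0979 and -0.25 ± 0.103, and the RPL3 bin had an edgeR adjusted p of 0.0507.

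By list, 101 of the 164 members at ribosomal protein genes were lower and 0 higher, with a median log2 fold change of -0.33. The counts were 20 of 30 at snoRNA genes (median -0.35), 19 of 26 at glycolytic and fermentation genes (-0.40), 10 of 16 at chaperone genes (-0.38), 4 of 4 at histone genes (-0.41), 11 of 17 at amino acid biosynthesis genes (-0.30) and 8 of 10 at other non-coding RNA genes (-0.39). At ribosome biogenesis genes the count was 18 of 74 (-0.14), at cell wall genes 7 of 28 with 1 higher (-0.12) and at translation factor genes 9 of 24 (-0.22). Differences between lists were not tested. None of the 10 members at nuclear pore and transport genes passed in either direction (median -0.13). The medians were 0.07 at hexose transporter genes (1 of 4 lower), 0.02 at the 1 member of the CLB2 cluster, which did not pass, -0.04 at SBF and MBF targets (1 of 9 lower) and -0.37 at tRNA genes (2 of 2 lower). For all members at genes the count was 377 lower and 4 higher of 810 (-0.25). These counts are by adjusted p, by which 10.7% of all bins were lower and 6.64% higher.

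**Figure D5:**
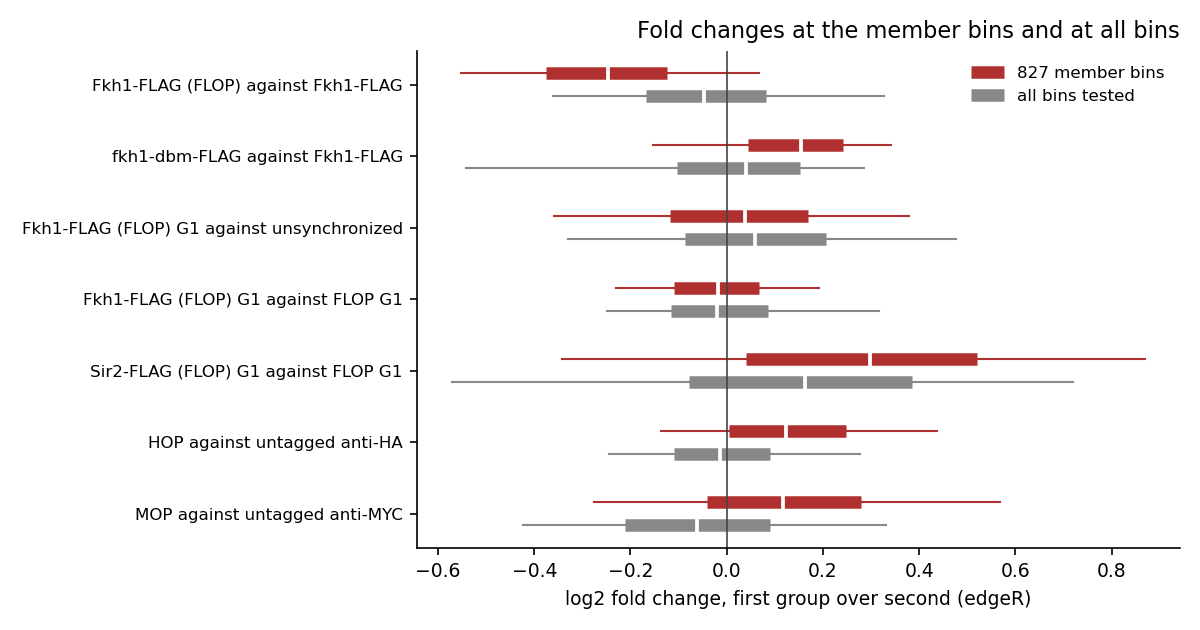
Log2 fold change from edgeR (horizontal axis, first-named group over second) in 7 comparisons, for the 827 members in red and all bins tested in grey. Thick bars span the quartiles, thin lines the 5th to the 95th percentile and white marks the median. The members' bar lies left of that of all bins for Fkh1-FLAG (FLOP) against Fkh1-FLAG (medians -0.25 and -0.05) and right of it for fkh1-dbm-FLAG against Fkh1-FLAG, Sir2-FLAG (FLOP), HOP and MOP.

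The DNA-binding mutant asks whether the members depend on DNA binding of the tagged target. They were slightly higher in fkh1-dbm-FLAG than in Fkh1-FLAG. So were the bins that were outliers in both the untagged strain and FLOP, with median signals of 2.66 and 2.39. At the FBA1 bin the signal was 3.23, 3.30 and 2.99 in fkh1-dbm-FLAG and 2.68, 2.39 and 2.34 in Fkh1-FLAG, and at CDC19 it was 2.74, 2.67 and 2.63 against 2.06, 2.41 and 2.02. Neither pair of groups overlapped, with log2 fold changes of 0.38 ± 0.0860 (edgeR adjusted p = 0.000477) and 0.31 ± 0.0871 (edgeR adjusted p = 0.0076). TDH3 and PHO84 did not pass the test in this comparison, with -0.11 ± 0.0866 and -0.04 ± 0.0869.

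Over all members, 208 (25.2%) were higher in the mutant at an edgeR adjusted p under 0.05, where 6.71% of all bins were, and 25 were lower, where 11.4% were. With the fold change limit 0 members were higher (all bins 0%) and 2 lower (all bins 1.85%). DESeq2 likewise gave 0 higher, and 401 members had an unadjusted edgeR p under 0.05 (all bins 31.2%). Members had a median log2 fold change of 0.16 and all bins 0.04, and 677 of 827 members were above 0. The 2 lower members were YPR204W at the right end of chromosome XVI, 947501 to 948000, with 5.15, 4.84 and 5.62 in Fkh1-FLAG against 2.37, 2.16 and 2.01, and DSE1, a daughter-cell gene, at chromosome V, 408501 to 409000, with 2.39, 2.42 and 2.70 against 1.24, 1.24 and 1.26. The count of higher members fell to 131 without replicate 2 of Fkh1-FLAG, to 115 without replicate 1 of fkh1-dbm-FLAG and to 116 without its replicate 2. This comparison and the former share the Fkh1-FLAG libraries.

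Arrest in G1, in a strain with LexA-FLAG, gave calls in both directions. Between Fkh1-FLAG (FLOP) in G1 and in unsynchronized cells, 53 members (6.41%) were higher at an edgeR adjusted p under 0.05 (all bins 10.6%). The lower members numbered 46 (5.56%, all bins 4.29%), and TMM normalization gave 37 higher and 83 lower (1635 and 1443 over all bins). With the fold change limit, 0 were higher (all bins 0.765%) and 2 lower (all bins 0.135%). DESeq2 also gave 0 higher, and 208 members had an unadjusted edgeR p under 0.05 (all bins 28.7%). The lower bins were beside PDC1, the gene of pyruvate decarboxylase, and at EXG1, the gene of a cell wall glucanase. At the PDC1 bin on chromosome XII, 234001 to 234500, the signal was 1.67, 1.23 and 1.30 in G1 and 2.23, 2.92 and 3.13 in unsynchronized cells. At EXG1, 729001 to 729500 of the same chromosome, it was 1.11, 1.26 and 1.26 against 2.33, 2.63 and 2.52. Neither pair overlapped, and the log2 fold changes were -1.05 ± 0.154 and -1.02 ± 0.126 (edgeR adjusted p = 1.6e-05 and 1.39e-06). The median log2 fold change was 0.04 over members and 0.06 over all bins, and -0.02 and 0.00 with TMM normalization. The count of higher members was 13 to 33 when any library of Fkh1-FLAG (FLOP), unsynchronized, or replicate 2 in G1 was left out, and that of lower members by both criteria was 1 without any of 5 of the 6 libraries.

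Adding tagged Fkh1 to a strain with LexA-FLAG in G1 gave few calls at the members. Between Fkh1-FLAG (FLOP) and FLOP in G1, 7 members were higher at an edgeR adjusted p under 0.05 (all bins 2.38%) and 1 lower (all bins 0.0433%), and with the fold change limit 1 was higher (all bins 0.745%) and 0 lower (all bins 0%). DESeq2 gave 0 lower with that limit, and 35 members had an unadjusted edgeR p under 0.05 (all bins 7.96%). Members and all bins both had a median log2 fold change of -0.02. The member that passed both criteria was YPR204W, with 4.17, 4.68 and 5.0 against 1.77, 1.88 and 2.14, which did not overlap. A further member passed without replicate 1 or 3 of FLOP or replicate 1 of Fkh1-FLAG (FLOP), and 1 was lower without replicate 3 of FLOP.

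Sir2-FLAG (FLOP) in G1 stood above FLOP in G1 at many members and at many other bins. Its 3 libraries differed more than those of other anti-FLAG groups, with a mean of member medians of 1.84 ± 0.219 (SD, n = 3) against 1.45 ± 0.0660 in FLOP. Of the members, 265 were higher at an edgeR adjusted p under 0.05 (all bins 22.5%) and 34 lower (all bins 7.86%), while TMM normalization gave 207 and 79 and DESeq2 265 and 103. Over all bins TMM normalization gave 2918 and 2780 and DESeq2 3767 and 3618. Median log2 fold changes were 0.30 over members and 0.16 over all bins, and 0.13 and 0.00 with TMM normalization. With the fold change limit, 18 members were higher (all bins 1.49%) and 1 lower (all bins 1.32%), against 5 and 3 with TMM normalization (178 and 465 over all bins). An unadjusted edgeR p under 0.05 was reached at 399 members (all bins 41.9%).

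Between YFL064C and COS4 at chromosome VI, 4001 to 4500, the signal was 3.64, 7.86 and 3.32 in Sir2-FLAG (FLOP) and 1.78, 0.946 and 1.99 in FLOP. CSS1 at chromosome IX, 24501 to 25000, had 3.35, 4.90 and 2.70 against 1.25, 1.55 and 1.77, and HPF1, the gene of a cell wall mannoprotein, at chromosome XV, 30001 to 30500, had 3.46, 4.90 and 3.04 against 1.77, 1.44 and 1.84. No group overlapped, replicate 2 of Sir2-FLAG (FLOP) was the highest at each, and the log2 fold changes were 1.68, 1.27 and 1.22 with edgeR adjusted p of 7.07e-07, 7.7e-06 and 1.07e-05. YPR204W rose by 1.18. The lower member was the SNR78 bin at 297001, with 0.510, 0.402 and 0.418 against 1.12, 1.2 and 1.07, a log2 fold change of -1.54 ± 0.185 (edgeR adjusted p = 1.78e-09). Without replicate 2 of Sir2-FLAG (FLOP) 4 members were higher by both criteria, and without its replicate 3 or replicate 3 of FLOP 31 and 28. By adjusted p alone the higher members were 120 without replicate 1 of FLOP and 125 without its replicate 2, and the lower ones 22 and 19. This comparison and the former share the FLOP libraries in G1, and the former shares those of Fkh1-FLAG (FLOP) with that of G1 with unsynchronized cells.

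A similar step, from an untagged strain to one with tagged LexA, was also made with anti-HA and anti-MYC. Those constructs used the ADH1 promoter and FLOP the TEF1 promoter, so the antibody was not the only difference. By adjusted p, 63 and 2 members were higher with LexA there (all bins 1.21% and 0.0481%). By the same measure 0 and 1 were lower (all bins 0.548% and 0.0481%). At PHO84 the anti-HA signal was 0.993, 1.05 and 1.24 in the untagged strain and 1.8, 1.43 and 1.47 in HOP. At the start-side bin of PMA1 it was 0.806, 1.26 and 1.07 against 1.51, 1.69 and 1.58, and at CDC19 0.992, 1.2 and 1.11 against 1.56, 1.5 and 1.61. HOP was higher at all 3 without overlap, with log2 fold changes of 0.52 ± 0.115, 0.62 ± 0.117 and 0.53 ± 0.117 (edgeR adjusted p = 0.00164, 5.51e-05 and 0.0019). The largest value given here was 0.69 ± 0.116, in the bin from 34501 beside RPL8A, past its stop codon (edgeR adjusted p = 2.82e-06). With anti-FLAG these loci are lower in FLOP than in the untagged strain by the rule that chose them.

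Of the 827 members, 63 (7.62%) were higher in HOP than in untagged anti-HA at an edgeR adjusted p under 0.05, where 1.21% of all bins were, and 0 were lower, where 0.548% were. With the fold change limit none was higher (all bins 0.00962%) or lower (all bins 0.154%). DESeq2 gave 126 higher and 0 lower by adjusted p (537 and 259 over all bins) and 0 with the limit. An unadjusted edgeR p under 0.05 was reached at 246 members (all bins 12.4%). The median log2 fold change was 0.12 over members and -0.01 over all bins, and 629 members were above 0. Bins that were anti-FLAG outliers in both the untagged strain and FLOP had a median signal of 1.94 in untagged anti-HA and 2.06 in HOP. From the class with the lowest to that with the highest untagged anti-FLAG signal, the median signal fell from 1.41 to 1.27 in untagged anti-HA libraries and rose from 1.45 to 1.58 in HOP. The count of higher members was 13 without replicate 1 of untagged anti-HA and 32 without replicate 1 or replicate 2 of HOP.

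With anti-MYC few members were called. In MOP against untagged anti-MYC, 2 members were higher by adjusted p (all bins 0.0481%) and with the fold change limit (all bins 0.0337%), and 1 was lower by either (all bins 0.0481% for both). The median log2 fold change was 0.12 over members and -0.06 over all bins, and 97 members had an unadjusted edgeR p under 0.05 (all bins 5.63%). CCW12, at chromosome XII, 369501 to 370000, had 0.500, 0.603 and 1.30 in untagged anti-MYC and 1.72, 1.67 and 2.06 in MOP, and the bin of SNR128 and SNR190 at chromosome X, 139501 to 140000, had 0.742, 0.948 and 0.843 against 1.62, 1.69 and 2.02. The lower bin was at the start of ADH1, the main alcohol dehydrogenase gene, at chromosome XV, 160501 to 161000, with 9.63, 6.09 and 3.98 against 1.53, 3.21 and 1.68. None of the 3 overlapped, and the edgeR adjusted p values were 0.00404, 0.00826 and 0.000842. The MOP construct carries an ADH1 promoter of its own, whose part in that value was not tested. No member passed without replicate 1 or 3 of MOP, none was higher without replicate 2 of untagged anti-MYC, and 6 were higher without its replicate 3.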

How the data were processed

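The authors sequenced paired-end reads of 150 bp, demultiplexed them with fastq-multx, used Bowtie2 for alignment and Samtools for removal of duplicates, and made counts with Bedtools. The deposited files hold, per library, the raw count of reads in each of 241434 windows of 50 bp on 16 chromosomes, with no scaling, so that 1 read can count in several adjoining windows. Gene positions and names come from an R64 annotation table. Sequence, centromeres, origins and repeat elements were not used here. The member bins and gene lists were chosen with earlier results of these data known.

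The signal followed the steps of the study, over 24134 bins, of which 3273 lie in the ranges left out, after dropping 16 incomplete bins. Tests used edgeR 4.0.16 (glmQLFit and glmQLFTest) on sums of unsmoothed counts, with library sizes set from the 20th percentile, only for bins where 3 or more libraries had 10 or more counts, and Benjamini-Hochberg adjustment over all of them. Calls needed an adjusted p under 0.05 and a change of 1 or more on the log2 scale. The code was tested on simulated data. Alternatives were TMM normalization, DESeq2 1.42.0, no filter, a replicate block, other forms of the rule and leaving out each library. Named are the 12 regions with the highest untagged signal, the 6 with the largest ratio, the 5 largest called changes a direction in each comparison that held in all 9 pairs of libraries, list genes at members and bins next to the limits. Of the list genes, most are given only as counts by list and the few printed were picked after their values were seen (1 is not reported here), and host genes were ranked by their member bins after seeing the data. Software: Python 3.11.15 (matplotlib 3.10.9, pandas 2.3.3, scipy 1.17.1, numpy 2.4.6) and R 4.3.3.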

Additional observations from a re-analysis of the deposited data

How the results depend on the processing

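The counts of members rest on a limit: with 3 in place of 1.5 interquartile ranges 450 bins were members, and other forms of the rule or leaving out a library gave counts within 1.5 times of 827. Where a count is small, 1 bin moves it. Neighbouring bins share reads, and counts of adjacent members are not independent. The filter on low counts changed no count by over 1.5 times, and no median over members changed its sign beyond the G1 and unsynchronized comparison of Fkh1-FLAG (FLOP) and that of Fkh1-FLAG (FLOP) with FLOP in G1, where it ran from -0.06 to 0.06. The cause of the other shifts was not tested.

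For Fkh1-FLAG (FLOP) against Fkh1-FLAG, TMM normalization gave 1 member lower by both criteria, a median of -0.20 and 8 members higher by adjusted p, and DESeq2 gave 1 and 15. Over all bins TMM normalization and DESeq2 gave 4 and 6 lower by both criteria and 1899 and 2471 higher by adjusted p. For Fkh1-FLAG (FLOP) in G1 against unsynchronized cells, the members lower by adjusted p numbered 83 with TMM normalization and 115 with DESeq2. Over all bins tested this count rose too, from 891 to 1443 and 2243. For Fkh1-FLAG (FLOP) against FLOP in G1, DESeq2 gave 3 lower by adjusted p (59 over all bins). For Sir2-FLAG (FLOP), TMM normalization and DESeq2 gave 5 higher and 3 lower by both criteria, and 79 and 103 lower by adjusted p. Over all bins they gave 178 and 177 higher and 465 and 459 lower by both criteria, and 2780 and 3618 lower by adjusted p. For HOP, DESeq2 gave 126 higher by adjusted p (537 over all bins). For MOP it gave 1 higher and 0 lower by both criteria (7 and 2 over all bins) and 8 and 0 by adjusted p (48 and 7).

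Replicate numbers did not pair the samples. Deviations of same-numbered samples from their group means correlated with r of -0.287 to 0.151, in 0 comparisons were all 3 pairs over 0.1, and in 0 did every sample correlate best with its own number. With the replicate number as a block, 8 members were higher by adjusted p in Fkh1-FLAG (FLOP) against Fkh1-FLAG. The block gave 158 higher by adjusted p and 2 lower by both criteria in Sir2-FLAG (FLOP). Over all bins it moved the count higher by adjusted p from 4674 to 3100 in Sir2-FLAG (FLOP) and from 10 to 23 in MOP, and that higher by both criteria from 0 to 1 in fkh1-dbm-FLAG. It moved no other count of calls by over 1.5 times.

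Leaving out each library in turn gave these ranges of counts of members, while counts over all bins, not given here, moved too. For Fkh1-FLAG (FLOP) against Fkh1-FLAG, members lower by both criteria numbered 1 to 3. For fkh1-dbm-FLAG, members higher by adjusted p numbered 115 to 207 and lower ones 16 to 24. For Fkh1-FLAG (FLOP) in G1 against unsynchronized cells, the count lower by both criteria was 1 to 2, and by adjusted p 13 to 67 were higher and 18 to 60 lower. For Fkh1-FLAG (FLOP) against FLOP in G1, 1 to 2 were higher and 0 to 1 lower by both criteria, and 4 to 6 higher and 0 to 1 lower by adjusted p. For Sir2-FLAG (FLOP), 4 to 31 were higher and 1 to 4 lower by both criteria, and 120 to 321 higher and 19 to 35 lower by adjusted p. For HOP, 13 to 70 were higher by adjusted p. For MOP, 0 to 6 were higher and 0 to 1 lower by either rule.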
